A study of Homo sapiens with 12 samples.

Results

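The miR-181 family was examined through 6 mature arms given by name rather than by a threshold, hsa-miR-181a-5p, hsa-miR-181a-3p, hsa-miR-181a-2-3p, hsa-miR-181b-5p, hsa-miR-181c-5p and hsa-miR-181d-5p, out of 1204 human miRNAs in the count table. Of these 6, 5 passed the filter on low counts and were among the 659 miRNAs tested. hsa-miR-181a-5p was the arm that did not pass. The other arms of the same hairpins that the table held, hsa-miR-181b-3p, hsa-miR-181b-2-3p and hsa-miR-181c-3p, all passed the filter and are described beside the members.

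The cells were MV4-11 and Molm-14, established human lines of acute myeloid leukemia (AML), each with an internal tandem duplication of FLT3. In each line MPC1, whose product helps carry pyruvate into mitochondria, was deleted with CRISPR/Cas9 (MPC1 KO) or the cells carried the nontargeting Empty Vector (EV), and each of the 4 groups had 3 libraries, 12 in all. The MPC1 KO cells were made with a lentiviral CRISPR/Cas9 vector and a single guide, and the methods do not describe the vector of the EV cells. Neither the labels nor the methods say whether the cells were clones or whether replicate libraries were made from separate cultures. The p-values therefore measure only the spread between these libraries, which may be technical. Small RNA libraries do not measure the MPC1 mRNA, so the deletion itself was not checked here.

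Each miRNA hairpin is cut by Drosha and Dicer into a duplex, of which the guide arm is usually loaded into Argonaute and the passenger arm is usually degraded. For the miR-181 family the 5p arm is the usual guide, and it pairs with target mRNAs through the seed, bases 2 to 8 from its 5′ end. The family is known for roles in lymphocyte development and in hematopoietic differentiation, and its level has been studied as a marker in AML. The family is made from 3 pairs of neighbouring hairpins. In GENCODE annotation of GRCh38, MIR181A1 (chr1:198859044-198859153, minus strand) and MIR181B1 (chr1:198858873-198858982, minus strand) lay 61 bases apart, within the span of the lncRNA MIR181A1HG on the same strand and outside its exons. MIR181A2 (chr9:124692442-124692551, plus strand) and MIR181B2 (chr9:124693710-124693798, plus strand) lay 1158 bases apart, within the span of the lncRNA MIR181A2HG on the same strand and of NR6A1 on the opposite strand, outside the exons of both. MIR181C (chr19:13874699-13874808, plus strand) and MIR181D (chr19:13874875-13875011, plus strand) lay 66 bases apart, within the span of NANOS3 on the same strand and outside its exons.

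The mature sequences below, from RefSeq (GRCh38.p14), show which arms share a seed and which arms a read can tell apart, with the seed in capitals. The 4 guide arms carried 1 seed:
hsa-miR-181a-5p: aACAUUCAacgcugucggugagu
hsa-miR-181b-5p: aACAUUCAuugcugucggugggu
hsa-miR-181c-5p: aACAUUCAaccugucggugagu
hsa-miR-181d-5p: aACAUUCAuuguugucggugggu
The 3p arms carried other seeds:
hsa-miR-181a-3p: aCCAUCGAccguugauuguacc
hsa-miR-181a-2-3p: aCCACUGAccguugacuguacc
hsa-miR-181b-3p: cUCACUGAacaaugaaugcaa
hsa-miR-181b-2-3p: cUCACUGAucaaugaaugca
hsa-miR-181c-3p: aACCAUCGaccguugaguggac

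With positions counted from 1 at the 5′ end, hsa-miR-181a-5p and hsa-miR-181b-5p differed by A9U, C10U and A21G, all outside the seed. hsa-miR-181b-5p and hsa-miR-181d-5p differed by the single substitution C12U. hsa-miR-181c-5p was 22 bases long against 23 for hsa-miR-181a-5p and was 1 edit away from it. Counts within each of these close pairs are uncertain where a read carries a sequencing error at the bases that differ. The seed of the guide arms was found in 5 of the 2370 mature human names of the RefSeq table, the 4 family arms and hsa-miR-4262, which was not analysed here, as was hsa-miR-181d-3p.

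The a and b guide arms are each encoded at 2 hairpins, on chromosome 1 and on chromosome 9, so a read of hsa-miR-181a-5p or hsa-miR-181b-5p cannot be assigned to a locus. The 3p arms can be assigned. hsa-miR-181a-3p, from MIR181A1 on chromosome 1, and hsa-miR-181a-2-3p, from MIR181A2 on chromosome 9, differed by U5C, C6U and U16C, the first pair of which lies in the seed. hsa-miR-181b-3p comes from MIR181B1 and hsa-miR-181b-2-3p from MIR181B2, and they share a seed. The hairpins of the a arms, with both mature arms in capitals, show a 5p arm of the same letters on a different backbone:
MIR181A1: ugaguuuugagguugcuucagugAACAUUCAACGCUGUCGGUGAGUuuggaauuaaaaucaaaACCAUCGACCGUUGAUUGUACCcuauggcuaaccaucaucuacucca
MIR181A2: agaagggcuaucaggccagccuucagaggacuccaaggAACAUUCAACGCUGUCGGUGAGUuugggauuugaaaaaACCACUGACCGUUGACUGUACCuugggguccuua

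Total counts ranged from 3870104 to 8683456 per library (median 5107200.5), and the TMM factors of edgeR, which scale the libraries to each other, lay between 0.940 and 1.08. Levels are given as counts per 1000000 counts of the TMM-scaled total (CPM). Replicates differed by more than counting noise in every pair, and the chi-square per degree of freedom ran from 11.4 to 153.6. The blood markers hsa-miR-223-3p, hsa-miR-142-5p, hsa-miR-142-3p and hsa-miR-155-5p were present in every library at a summed level of 66196 to 105991 CPM. The 6 markers of erythroid, epithelial and liver cells summed to 117 to 275 CPM, nearly all of it hsa-miR-200c-3p, while hsa-miR-205-5p had between 0 and 2 counts. This sum was higher in MV4-11, at 219 to 249 CPM in EV and 240 to 275 CPM in MPC1 KO libraries, than in Molm-14, at 117 to 130 and 133 to 148 CPM, in the same direction as the arms of chromosome 1 and hsa-miR-181b-5p below. The summed level of the blood markers was higher in Molm-14, at 84499 and 103097 CPM in EV and MPC1 KO (group means). In MV4-11 it was 70973 and 69214 CPM. Of the list, hsa-miR-142-5p and hsa-miR-142-3p had higher means in Molm-14 in both genotypes, the latter at 42553.5 against 21195.5 CPM in EV. Lower means in Molm-14 were seen for hsa-miR-223-3p in both genotypes (2732 against 3250 CPM in EV). For hsa-miR-155-5p this was so in EV (27749 against 39198 CPM) but not in MPC1 KO. The part of either list in the results was not tested. MV4-11 EV replicate 1 was the deepest library, at 8683456 counts.

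The members covered a wide range of levels, and the member with the highest mean in each group was a 3p arm. In MV4-11 EV the order was hsa-miR-181a-3p, hsa-miR-181b-5p, hsa-miR-181a-2-3p, hsa-miR-181d-5p, hsa-miR-181c-5p and hsa-miR-181a-5p. There hsa-miR-181b-5p and hsa-miR-181a-2-3p, with overlapping libraries, could not be ordered. In MV4-11 MPC1 KO these arms changed places, at 415 and 438 CPM, and overlapped again. In Molm-14 the chromosome 9 arm hsa-miR-181a-2-3p came first in both genotypes, followed by hsa-miR-181a-3p and hsa-miR-181b-5p. Its lowest EV library, at 446 CPM, lay just below the highest EV library of hsa-miR-181a-3p, at 447 CPM. The members have 22 or 23 bases, and an effect of length was not tested. How evenly the library kit captured arms of different sequence cannot be seen in these files, and levels of different arms are compared as counts, not as molecules.

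**Figure D1:**
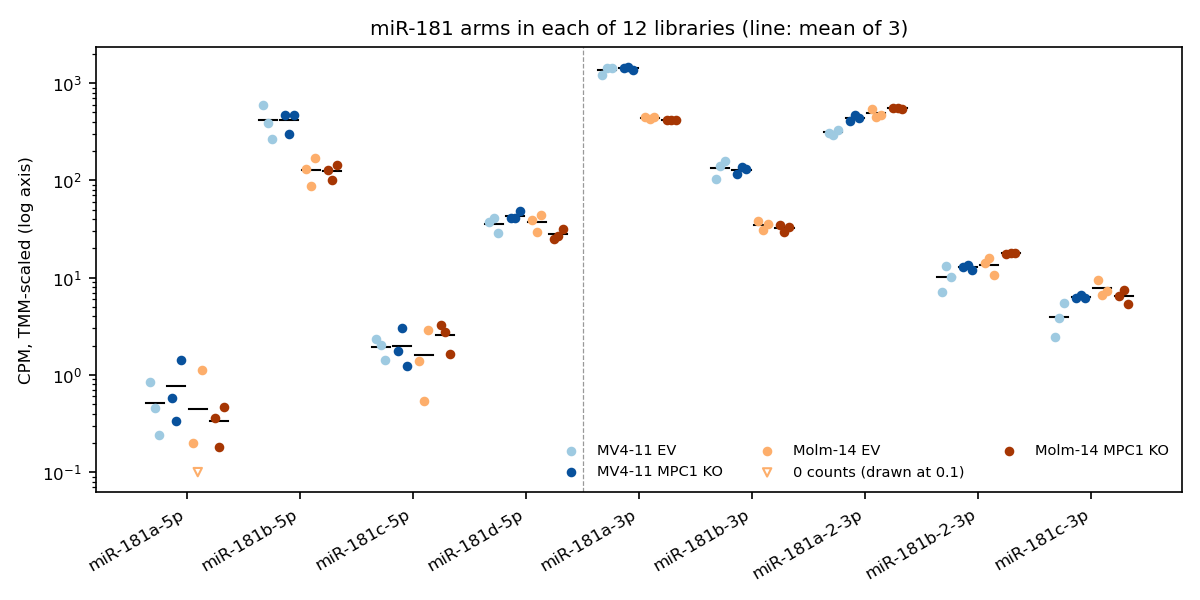
Levels of the 6 members and the 3 other arms of their hairpins in each of the 12 libraries, in CPM of the TMM-scaled total on a log axis, with 5p arms left of the dashed line and 3p arms right of it. Points are libraries, horizontal lines are means of 3, and an open triangle marks the library with 0 counts; hsa-miR-181a-5p lies near or below 1 CPM in every group while hsa-miR-181a-3p and hsa-miR-181b-3p step down from MV4-11 to Molm-14.

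hsa-miR-181a-5p, the arm by which the family is usually known, was listed at 0 to 8 counts per library. It had 7, 2 and 1 counts in MV4-11 EV replicates 1, 2 and 3, and 3, 2 and 8 in MV4-11 MPC1 KO. It had 1, 0 and 5 counts in Molm-14 EV, and 2, 1 and 2 in Molm-14 MPC1 KO. The group means were 0.515 ± 0.311, 0.776 ± 0.564, 0.441 ± 0.600 and 0.337 ± 0.144 CPM (SD, n = 3 each), in the same order. All 4 groups overlapped, and no difference in hsa-miR-181a-5p was detectable at so few counts. The 0 counts of 3870104 in Molm-14 EV replicate 2 allow a level of up to 0.800 CPM (3 counts), and such limits and all intervals of counts cover counting error only.

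The 3p arms of the same hairpins were far more abundant. The summed count of hsa-miR-181a-3p with that of hsa-miR-181a-2-3p stood to hsa-miR-181a-5p, with 1 count added to each side since a library had 0, at 2453 to 1 in the EV and 2181 to 1 in the MPC1 KO cells of MV4-11, and at 1767 to 1 in the EV and 1869.6 to 1 in the MPC1 KO cells of Molm-14 (ratios of the mean log2 values). On the log2 scale of mean CPM over the 12 libraries, hsa-miR-181a-5p lay at -10.78 against hsa-miR-181a-3p and at -9.76 against hsa-miR-181a-2-3p. The b arms showed the other order, with hsa-miR-181b-5p at 1.72 above hsa-miR-181b-3p and at 4.32 above hsa-miR-181b-2-3p. On chromosome 19, hsa-miR-181c-5p lay at -1.60 against hsa-miR-181c-3p.

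How reads that match several places were counted is not given in the sources used here, and this bears on the a and b guide arms, whose sequences occur at 2 hairpins each. Of 1068 miRNAs matched to RefSeq, 38 had a mature sequence at 2 or more hairpins, with a median of the mean levels of 3.05 CPM, against 1.66 CPM for the 1030 at 1 hairpin. Among the 38, hsa-miR-24-3p, an arm of the neighbouring miR-23a cluster that is also encoded at 2 hairpins, averaged 2.47 CPM, while hsa-miR-24-2-5p from that cluster averaged 311 to 840 CPM in the 4 groups. hsa-miR-181b-5p, at 2 hairpins as well, averaged 271 CPM. A 5p arm lay below its 3p arm in 146 of 284 hairpins whose 5p arm has 1 locus and in 10 of 18 hairpins whose 5p arm has 2 or more, which hold 13 distinct 5p arms. The median log2 ratio of the 5p to the 3p arm was -0.106 in the first set and -2.51 in the second. Both sets hold only hairpins with both arms in the table and a 3p arm encoded at 1 hairpin. The family itself is among them, MIR181C in the first set and MIR181A1, MIR181A2, MIR181B1 and MIR181B2 in the second. The part that the counting of such reads had in the level of hsa-miR-181a-5p was not tested, and the counts of hsa-miR-181a-5p and hsa-miR-181b-5p are given as deposited.

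The first comparison asked how the family differed between the cell lines, in Molm-14 EV against MV4-11 EV. Of the 5 members tested, hsa-miR-181a-3p and hsa-miR-181b-5p were lower in Molm-14, hsa-miR-181a-2-3p was higher, and hsa-miR-181c-5p and hsa-miR-181d-5p did not pass the test. These 3 of 5 compare with 61.9% of all 659 miRNAs at an adjusted p under 0.05 in this comparison, so the share was near the background. The same 3 members had EV libraries that did not overlap between the lines, against 64.2% of all miRNAs. The median log2 fold change of the 5 was -0.26, against 0.06 over all miRNAs tested. Log2 fold changes, their standard errors (SE) and adjusted p-values throughout come from edgeR's quasi-likelihood test with Benjamini-Hochberg adjustment over the 659 miRNAs.

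hsa-miR-181a-3p, the passenger arm of the chromosome 1 hairpin, had 1220.5, 1436 and 1432 CPM in the MV4-11 EV libraries and 447, 429 and 443 CPM in the Molm-14 EV libraries. Every MV4-11 library stood far above every Molm-14 library. The log2 fold change was -1.63 (SE 0.091, edgeR adjusted p = 7.99e-14), a level 3.10-fold lower in Molm-14 (95% interval 2.72 to 3.53). hsa-miR-181b-3p, from the neighbouring hairpin 61 bases away, was lower as well, at 34.9 ± 3.4 CPM in Molm-14 EV against 134 ± 26.8 CPM in MV4-11 EV (SD, n = 3 each), with a log2 fold change of -1.93 (SE 0.147, edgeR adjusted p = 3.27e-11). Both 3p arms of the chromosome 1 pair were thus lower in Molm-14. In such bulk libraries, fewer cells with an arm and less of it per cell cannot be told apart.

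hsa-miR-181a-2-3p, the passenger arm of the chromosome 9 hairpin, went the other way. It had 310.0, 295 and 332 CPM in the MV4-11 EV libraries and 541, 446 and 474 CPM in the Molm-14 EV libraries. The groups did not overlap, and the log2 fold change was 0.64 (SE 0.096, edgeR adjusted p = 2.64e-06), a level 1.56-fold higher in Molm-14 (95% interval 1.36 to 1.79). Its neighbour hsa-miR-181b-2-3p had 10.1 ± 3.04 CPM in MV4-11 EV and 13.5 ± 2.65 CPM in Molm-14 EV (SD, n = 3 each), with a log2 fold change of 0.45 (SE 0.221, edgeR adjusted p = 0.0782). It did not pass the test, and its libraries overlapped. Without MV4-11 EV replicate 2 or Molm-14 EV replicate 3 it passed, with log2 fold changes of 0.68 and 0.65 (edgeR adjusted p = 0.0141 and 0.0207), and without MV4-11 EV replicate 1 it was 0.16 (adjusted p = 0.563).

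hsa-miR-181b-5p, the guide arm that both a/b loci encode, had 597, 387 and 264 CPM in the MV4-11 EV libraries and 131, 86.4 and 168 CPM in the Molm-14 EV libraries. The MV4-11 libraries varied widely, with a coefficient of variation of 40.6%, and still all stood above Molm-14. The log2 fold change was -1.70 (SE 0.357, edgeR adjusted p = 0.00259), a level 3.24-fold lower in Molm-14 with a wide 95% interval of 1.84 to 5.71. The spread within MV4-11 EV ran opposite in hsa-miR-181b-5p and hsa-miR-181b-3p. Replicate 1, the deepest library, had the highest hsa-miR-181b-5p and, at 104 CPM, the lowest hsa-miR-181b-3p, and replicate 3 had the lowest hsa-miR-181b-5p and, at 156 CPM, the highest hsa-miR-181b-3p. The chromosome 9 arm hsa-miR-181b-2-3p, at 7.06, 13.1 and 10.1 CPM, was lowest in replicate 1 and highest in replicate 2. The part of depth in this was not tested.

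The chromosome 19 guide arms did not differ detectably between the EV controls. hsa-miR-181d-5p had 37.5, 40.8 and 28.7 CPM in MV4-11 EV and 39.5, 29.6 and 44.1 CPM in Molm-14 EV, with a log2 fold change of 0.08 (95% interval -0.26 to 0.43). hsa-miR-181c-5p had 19, 9 and 6 counts in MV4-11 EV and 7, 2 and 13 in Molm-14 EV, or 1.93 ± 0.448 and 1.62 ± 1.21 CPM (SD, n = 3 each). Its log2 fold change of -0.26 had a wide 95% interval, from -1.28 to 0.76. hsa-miR-181c-3p was higher in Molm-14, at 7.75 ± 1.44 against 3.93 ± 1.54 CPM (SD, n = 3 each), with a log2 fold change of 1.07 (SE 0.286, edgeR adjusted p = 0.00231). Without MV4-11 EV replicate 1 it was 0.69 and did not pass (edgeR adjusted p = 0.0518). The hairpins of the miR-23a/27a/24-2 cluster lie on the minus strand, opposite to MIR181C, with MIR23A nearest to it at 38039 bases. Beside 28.4% of all 659 miRNAs called lower, 5 of 6 arms of this cluster were lower in Molm-14. Their log2 fold changes ran from -1.44 to -0.32. Whether these arms differed from those of miR-181c and miR-181d was not tested.

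The balance of the loci was then compared within each library, where the scaling of the libraries cancels. In MV4-11 EV, hsa-miR-181a-2-3p made up 18.7 ± 1.60% of the 3p arms of miR-181a and in Molm-14 EV 52.5 ± 2.01% (SD, n = 3 each). In the MPC1 KO groups the shares were 23.6 ± 1.03% and 57.1 ± 0.477%. By counts, hsa-miR-181a-2-3p thus lay below hsa-miR-181a-3p in every MV4-11 library and above it in every Molm-14 library. The margin was small in Molm-14 EV replicate 2, at 1671 against 1608 counts. The log2 ratio of hsa-miR-181a-2-3p to hsa-miR-181a-3p was higher in Molm-14 by 2.27 among EV libraries and by 2.11 among MPC1 KO libraries, with no overlap in either. Over both genotypes the difference was 2.19 (exact two-sided permutation test within genotypes, p = 0.005, the smallest p its 400 arrangements allow, and adjusted p = 0.0125 over 10 ratio tests), or 4.56-fold.

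The b arms of the same hairpin pairs were compared after their values had been seen. hsa-miR-181b-2-3p made up 6.97 ± 1.35% of the 3p arms of miR-181b in the EV and 9.07 ± 0.793% in the MPC1 KO cells of MV4-11, against 27.9 ± 5.33% and 35.5 ± 2.13% in those of Molm-14 (SD, n = 3 each). The log2 ratio of hsa-miR-181b-2-3p to hsa-miR-181b-3p was higher in Molm-14 by 2.42 over both genotypes (exact permutation test, p = 0.005, adjusted p = 0.014 over 14 tests). Both pairs of arms therefore differed between the lines in the same direction, by 4.56-fold and 5.34-fold. The log2 ratio of both miR-181b 3p arms to hsa-miR-181b-5p differed by 0.18 between the lines, within the spread of the libraries (exact permutation test, p = 0.58, adjusted p = 0.84).

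**Figure D2:**
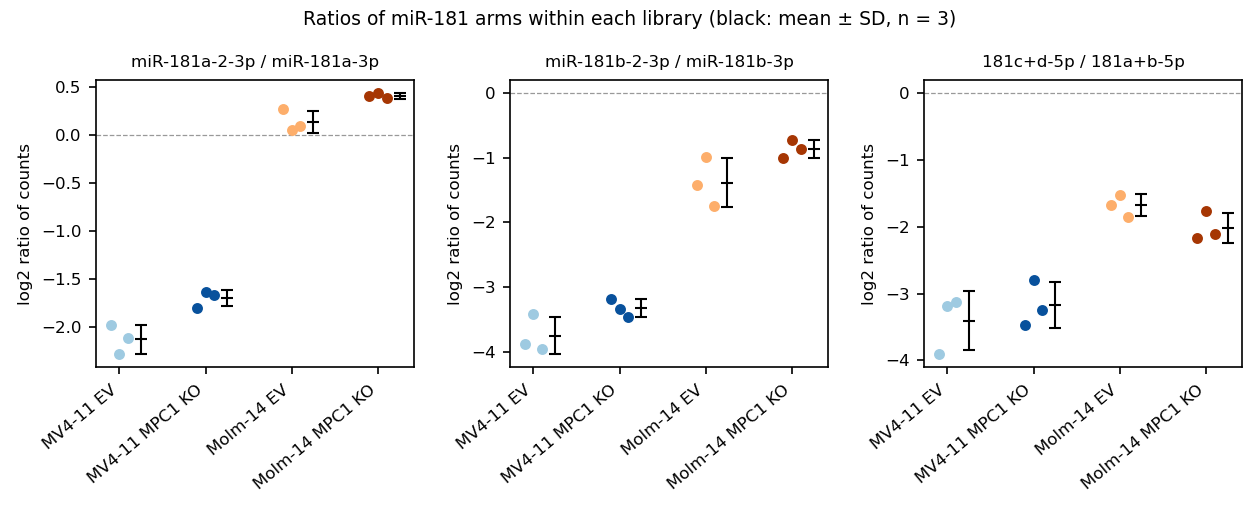
Log2 ratios of miR-181 arms within each of the 12 libraries, by group, with black bars for the mean and SD of 3 libraries and a dashed line where both sides are equal. The ratio of hsa-miR-181a-2-3p to hsa-miR-181a-3p rises from a mean of -2.12 in MV4-11 EV to 0.14 in Molm-14 EV, and within each line the MPC1 KO libraries lie above the EV libraries; the other panels show hsa-miR-181b-2-3p to hsa-miR-181b-3p, and the c and d guide arms to the a and b guide arms.

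The guide arms of chromosome 19 took a larger part of the family's 5p counts in Molm-14. The log2 ratio of hsa-miR-181c-5p and hsa-miR-181d-5p to hsa-miR-181a-5p and hsa-miR-181b-5p was -3.41 ± 0.437 in MV4-11 EV and -1.68 ± 0.164 in Molm-14 EV (SD, n = 3 each). In the MPC1 KO groups it was -3.17 ± 0.345 and -2.02 ± 0.222. The mean difference between the lines was 1.44 (exact permutation test, p = 0.005, adjusted p = 0.0125), with no overlap in either genotype. On both sides of this ratio a single arm held nearly all the counts, hsa-miR-181d-5p on the chromosome 19 side and hsa-miR-181b-5p on the a/b side, and the latter carries the uncertainty of a sequence at 2 hairpins. Between the EV controls hsa-miR-181b-5p was lower in Molm-14 (log2 fold change -1.70), while hsa-miR-181d-5p did not differ detectably (0.08). In MPC1 KO, hsa-miR-181b-5p averaged 415 CPM in MV4-11 and 124 CPM in Molm-14, and hsa-miR-181d-5p averaged 43.4 and 27.9 CPM. The ratio of hsa-miR-181d-5p to hsa-miR-181c-5p was 18.6 and 23.2 in the EV and MPC1 KO cells of MV4-11 and 28.7 and 11.4 in those of Molm-14 (from mean log2 values), and it did not differ detectably between the lines (difference -0.20, exact permutation test, p = 0.66, adjusted p = 0.825).

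Within the a/b guide arms, the log2 ratio of hsa-miR-181b-5p to hsa-miR-181a-5p was lower in Molm-14 by 1.15 (exact permutation test, p = 0.005, adjusted p = 0.0125, with 1 count added to each arm). Without the added count and without the library at 0 the difference was -1.08 and did not pass (adjusted p = 0.0875), and the few counts of hsa-miR-181a-5p leave this ratio uncertain. The ratio of the miR-181a 3p arms to hsa-miR-181a-5p differed between the lines by -0.35 on the log2 scale (exact permutation test, p = 0.475, adjusted p = 0.792). Summed over the 6 members, the family took 2143 ± 79.1 CPM of the raw library total in MV4-11 EV and 1051 ± 79.5 in Molm-14 EV (SD, n = 3 each). It took 2452 ± 7.49 in MV4-11 MPC1 KO and 1101 ± 54.4 in Molm-14 MPC1 KO. Most of each sum came from the miR-181a 3p arms. The chromosome 1 arm held 64.1% on average in MV4-11 EV and 40.3% in Molm-14 EV. The chromosome 9 arm held 14.7% and 44.5%. The guide arm hsa-miR-181a-5p, with its uncertain counting, held only 0.0240% and 0.0388%. The sums thus describe mainly counts of passenger arms and do not give the level of the guide arms.

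**Figure D3:**
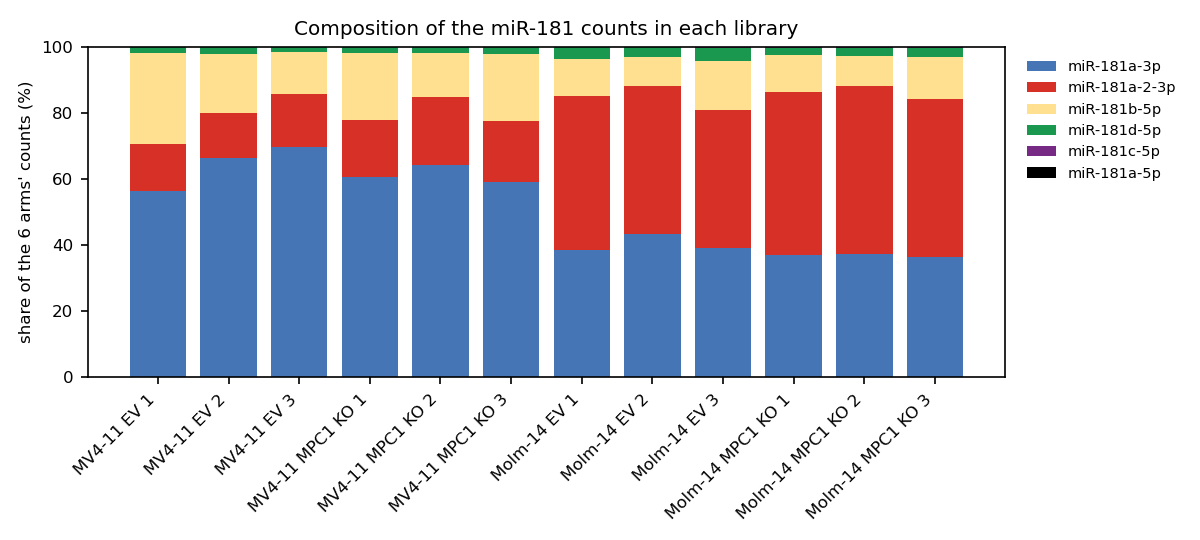
Share of each of the 6 members in the family's summed counts (percent), 1 bar per library, drawn from 0 to 100. hsa-miR-181a-3p takes 64.1% on average in MV4-11 EV and 40.3% in Molm-14 EV, hsa-miR-181a-2-3p takes 14.7% and 44.5%, and the shares of hsa-miR-181c-5p and hsa-miR-181a-5p are too small to see.

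The second comparison asked how deletion of MPC1 changed the family within each line. These comparisons share their EV libraries with the comparison of the lines above. In MV4-11, 1 of the 5 members tested rose, hsa-miR-181a-2-3p, and none fell, against 3.03% of all 659 miRNAs past the threshold in either direction. In Molm-14, 0 of 5 passed, against 6.83% of all miRNAs (128 of the 659 miRNAs had an unadjusted p under 0.05, hsa-miR-181d-5p among them). The median log2 fold change of the 5 members was 0.06 in MV4-11 and -0.06 in Molm-14, beside medians of -0.0035 and -0.013 over all miRNAs tested. None of the 3 other arms and none of the 6 miR-23a/27a/24-2 arms passed in either line.

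hsa-miR-181a-2-3p had 310.0, 295 and 332 CPM in the MV4-11 EV libraries and 412, 468 and 434 CPM in the MV4-11 MPC1 KO libraries. Each MPC1 KO library exceeded each EV library, as for 17.5% of the miRNAs in either direction, and hsa-miR-181a-2-3p was the only member of which this was so. The log2 fold change was 0.49 (SE 0.095, edgeR adjusted p = 0.00265), a 1.40-fold rise with a 95% interval of 1.22 to 1.61. In Molm-14 it had 541, 446 and 474 CPM in EV and 556, 561 and 541 CPM in MPC1 KO libraries. There the MPC1 KO libraries also lay above the EV libraries, by under 1 CPM at the nearest pair, but the log2 fold change of 0.18 (SE 0.095, edgeR adjusted p = 0.302) did not pass. The difference between the lines, -0.31 (SE 0.134, edgeR adjusted p = 0.239), did not pass either, so the effect was not shown to differ between MV4-11 and Molm-14.

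hsa-miR-181a-3p, the matching arm of the chromosome 1 hairpin, did not pass in either line. In MV4-11 MPC1 KO it had 1429, 1455 and 1379 CPM, overlapping the EV libraries, and its log2 fold change was 0.06 (95% interval -0.12 to 0.24). In Molm-14 MPC1 KO it had 419.7, 413 and 414 CPM, all below the EV libraries, with a log2 fold change of -0.08 (95% interval -0.27 to 0.10). With hsa-miR-181a-2-3p it made 2 of 5 members whose groups did not overlap in Molm-14, against 27.2% of all miRNAs.

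The ratio of the 2 arms within each library is free of the scaling and separated the genotypes in both lines. The linear ratio of hsa-miR-181a-2-3p to hsa-miR-181a-3p was 0.254, 0.206 and 0.231 in MV4-11 EV and 0.289, 0.322 and 0.315 in MV4-11 MPC1 KO. It was 1.21, 1.04 and 1.07 in Molm-14 EV and 1.33, 1.36 and 1.31 in Molm-14 MPC1 KO. Every MPC1 KO library stood above every EV library of its line. On the log2 scale the rise was 0.42 (SE 0.10) in MV4-11 and 0.27 (SE 0.0693) in Molm-14, each with p = 0.1 in an exact permutation test, the smallest that 3 libraries against 3 allow. Over both lines the mean rise was 0.35 (exact two-sided permutation test within lines, p = 0.005, adjusted p = 0.0125), or 1.27-fold.

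The b pair was again compared after its values had been seen. The log2 ratio of hsa-miR-181b-2-3p to hsa-miR-181b-3p was higher in MPC1 KO by 0.43 (SE 0.185) in MV4-11 and by 0.52 (SE 0.234) in Molm-14, and the libraries of the 2 genotypes overlapped in each line. Over both lines the difference was 0.47 (exact permutation test, p = 0.02, adjusted p = 0.0467 over 14 tests). It passed in only 4 of the 12 repeats that left out 1 library, with adjusted p up to 0.0933 and differences from 0.38 to 0.57. By itself, hsa-miR-181b-2-3p had 10.1 ± 3.04 and 12.8 ± 0.771 CPM in MV4-11 EV and MPC1 KO and 13.5 ± 2.65 and 17.8 ± 0.309 CPM in the respective Molm-14 groups (SD, n = 3 each), with log2 fold changes of 0.38 and 0.40 that did not pass (edgeR adjusted p = 0.482 and 0.311). The first was 0.13 without MV4-11 EV replicate 1 and 0.62 without MV4-11 EV replicate 2, and the second was 0.26 without Molm-14 EV replicate 3. hsa-miR-181b-3p had log2 fold changes of -0.05 and -0.11 (edgeR adjusted p = 0.924 and 0.777).

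**Figure D4:**
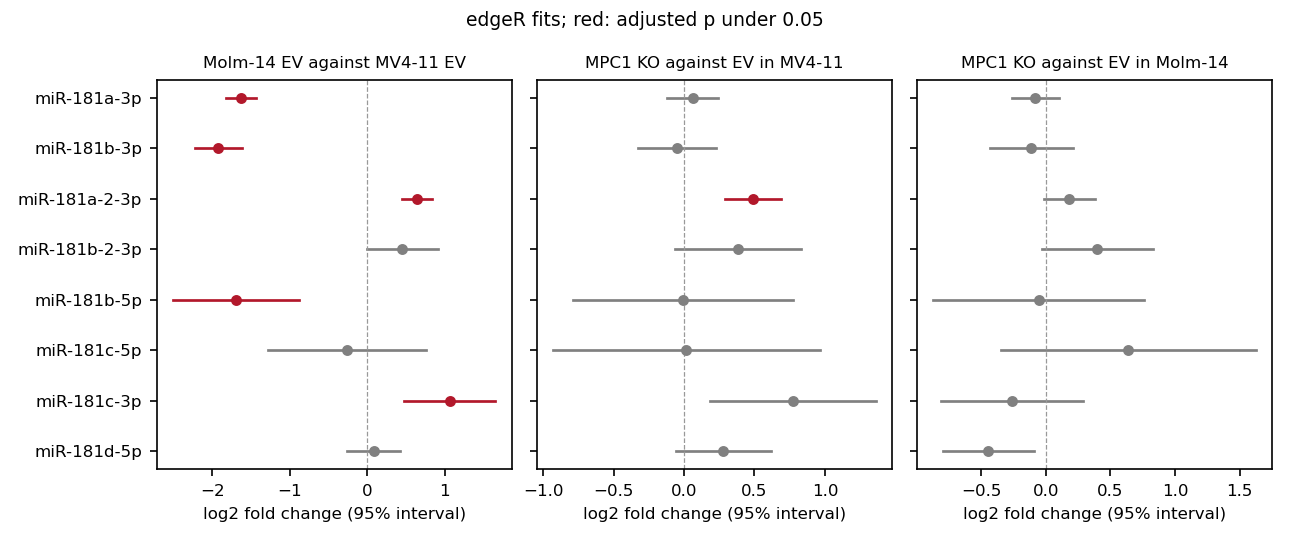
Log2 fold changes with 95% intervals of the 5 members tested and the 3 other arms of their hairpins, from edgeR, in Molm-14 EV against MV4-11 EV (left) and in MPC1 KO against EV in MV4-11 (middle) and Molm-14 (right), with red for an adjusted p under 0.05. Between the lines hsa-miR-181a-3p, hsa-miR-181b-3p and hsa-miR-181b-5p are lower while hsa-miR-181a-2-3p is higher, as is hsa-miR-181c-3p, in Molm-14, and of the MPC1 KO changes the 0.49 of hsa-miR-181a-2-3p in MV4-11 is the one in red.

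The guide arms showed no call with deletion of MPC1. hsa-miR-181b-5p had 475, 302 and 469 CPM in MV4-11 MPC1 KO, within the range of the EV libraries, and its log2 fold change was -0.01 (95% interval -0.79 to 0.77). In Molm-14 MPC1 KO it had 127, 101 and 144 CPM, again within the range of the EV libraries, with a log2 fold change of -0.06 (95% interval -0.87 to 0.76). The MV4-11 interval reaches up to 1.71-fold, so it holds the 1.40-fold rise of hsa-miR-181a-2-3p. hsa-miR-181c-5p had 9, 18 and 7 counts in MV4-11 MPC1 KO and 18, 15 and 7 in Molm-14 MPC1 KO, with log2 fold changes of 0.02 (95% interval -0.93 to 0.96) and 0.64 (95% interval -0.35 to 1.63). The latter was 1.34 without Molm-14 EV replicate 3 and 0.31 without Molm-14 EV replicate 2, past the threshold in neither case (edgeR adjusted p = 0.202 and 0.814).

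hsa-miR-181d-5p was the guide arm whose estimates had opposite signs in the lines. In MV4-11 it had 37.5, 40.8 and 28.7 CPM in EV and 41.2, 40.6 and 48.4 CPM in MPC1 KO libraries, with a log2 fold change of 0.28 (SE 0.163, edgeR adjusted p = 0.488). In Molm-14 it had 39.5, 29.6 and 44.1 CPM in EV and 24.99, 26.96 and 31.9 CPM in MPC1 KO libraries, with a log2 fold change of -0.44 (SE 0.170, edgeR adjusted p = 0.116). The groups overlapped in each line, and in Molm-14 the overlap came from EV replicate 2. The difference between the lines was -0.72 (SE 0.235, edgeR adjusted p = 0.0725), and 0 of 5 members passed in this test, against 6.68% of all miRNAs (122 of 659 had an unadjusted p under 0.05). Without Molm-14 EV replicate 2 the fall in Molm-14 was past the threshold (-0.55, edgeR adjusted p = 0.0391), and so was the difference (-0.90, adjusted p = 0.0116). DESeq2 also placed the difference past the threshold (-0.73, adjusted p = 0.0453). Leaving out other libraries moved these values the other way. Without Molm-14 EV replicate 3 the log2 fold change in Molm-14 was -0.31 (adjusted p = 0.423), the difference was -0.58 without MV4-11 EV replicate 3 (adjusted p = 0.144), and its adjusted p was 0.215 without MV4-11 MPC1 KO replicate 3. In MV4-11 the log2 fold change was 0.15 without EV replicate 3 and 0.17 without MPC1 KO replicate 3.

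hsa-miR-181c-3p had 2.43, 3.85 and 5.51 CPM in MV4-11 EV and 6.22, 6.69 and 6.18 CPM in MV4-11 MPC1 KO libraries. The groups did not overlap, as for 17.5% of all 659 miRNAs in either direction. The log2 fold change of 0.77 (SE 0.285, edgeR adjusted p = 0.141) did not pass, except without MV4-11 EV replicate 3 (1.07, adjusted p = 0.0492). Without MV4-11 EV replicate 1 it was 0.44 (adjusted p = 0.578). In Molm-14 its log2 fold change was -0.26 (edgeR adjusted p = 0.655). The log2 ratio of the c and d guide arms to the a and b guide arms changed with MPC1 KO by 0.24 in MV4-11 and -0.33 in Molm-14, and the mean of -0.05 did not pass (exact permutation test, p = 0.82, adjusted p = 0.911). The ratios of hsa-miR-181b-5p to hsa-miR-181a-5p (-0.14, p = 0.61, adjusted p = 0.825), of the miR-181a 3p arms to hsa-miR-181a-5p (-0.04, p = 0.945, adjusted p = 0.945) and of hsa-miR-181d-5p to hsa-miR-181c-5p (-0.51, p = 0.31, adjusted p = 0.62) did not pass in the same exact permutation test. The ratio of the miR-181b 3p arms to hsa-miR-181b-5p changed by 0.01 (exact permutation test, p = 0.985, adjusted p = 0.985).

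The miRNAs whose levels followed those of the members most closely over the 12 libraries were found by Pearson correlation of log2 CPM, as a description of libraries that share depth, scaling and the split between the lines. For hsa-miR-181a-5p they were hsa-miR-454-3p (r = 0.849), hsa-let-7f-5p (r = 0.786) and hsa-miR-6797-3p (r = 0.781), from 0 to 8 counts of the member. For hsa-miR-181c-5p they were hsa-miR-4639-5p (r = 0.666), hsa-miR-3140-5p (r = 0.571) and hsa-miR-1277-3p (r = 0.553). Chosen after values were seen, the closest to hsa-miR-181a-3p was hsa-miR-598-3p (r = 0.997), which averaged 334 CPM in MV4-11 EV and 0.461 CPM in Molm-14 EV, and the closest to hsa-miR-181a-2-3p was hsa-miR-193a-5p (r = 0.942), which averaged 134 and 189 CPM in the EV and MPC1 KO cells of MV4-11 and 212 and 245 CPM in those of Molm-14.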

How the data were processed

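Small RNA of 12 libraries was sequenced (NEBNext small RNA kit), and the authors deposited raw counts, whole numbers of reads per mature miRNA, without normalization. The submitters' processing notes name STAR 2.5.2, featureCounts 1.5.1 and GRCh38; how reads matching several places were counted is not given in the sources used here. Groups came from the sample labels. From the counts, edgeR 4.0.16 in R 4.3.3 was run on all 12 libraries as 4 group means, with filterByExpr (minimum count 10, 659 of 1204 miRNAs kept), TMM factors, a robust quasi-likelihood fit and Benjamini-Hochberg adjustment (threshold 0.05). The standard error was taken from the log2 fold change and its F statistic. Ratios of arms were compared in each library by exact two-sided permutation tests (scipy 1.17.1) within lines or genotypes, adjusted over 10 tests, or 14 with those of the miR-181b 3p arms, added after seeing the data. For ratios to hsa-miR-181a-5p, 1 count was added to each arm, where the test had been planned without it, because a library had 0. The fit was tested on simulated data.

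Members and lists were chosen with earlier results of these data known. Named are the 6 members, the other arms of their hairpins, miRNAs of the same seed, the miR-23a/27a/24-2 arms, the marker miRNAs, and the 3 miRNAs most correlated with hsa-miR-181a-5p and with hsa-miR-181c-5p; hsa-miR-598-3p and hsa-miR-193a-5p were named after their values were seen. Alternatives were DESeq2 1.42.0, limma-voom (limma 3.58.1), other library factors, other filters, edgeR run per line, a block of replicate numbers, another added count, and leaving out each library.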

Additional observations from a re-analysis of the deposited data

How the results depend on the processing

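The count of members past the threshold was 1 for MPC1 KO in MV4-11 and 3 between the EV controls under every alternative run. For MPC1 KO in Molm-14 it was 0 to 1 with each library left out, and for the difference between the lines 0 to 1 likewise. Each 1 was hsa-miR-181d-5p, without Molm-14 EV replicate 2. The difference also had 1 member past the threshold with DESeq2 (-0.73, adjusted p = 0.0453), with total counts (-0.77, adjusted p = 0.0431) and among miRNAs with a mean of at least 100 counts (-0.73, adjusted p = 0.0432). Over the 8 alternatives that kept all libraries, the difference for hsa-miR-181d-5p ran from -0.77 to -0.54. In these fits its adjusted p ran from 0.0431 to 0.174. The rise of hsa-miR-181a-2-3p in MV4-11 was 0.43 to 0.56 with each library left out (adjusted p = 0.000285 to 0.0318) and 0.38 to 0.56 otherwise (adjusted p = 0.000212 to 0.0371). Over all miRNAs, the calls for MPC1 KO in MV4-11 went from 20 to 12 without MV4-11 MPC1 KO replicate 1, and to 38 and 34 without Molm-14 EV replicates 2 and 3. The calls for the difference went from 44 to between 22 and 28 in 7 such repeats, and those between the EV controls from 408 to 212 with the mean of at least 100 counts, where 279 miRNAs were tested. Upper-quartile factors moved the median log2 fold change of all miRNAs to -0.12 for MPC1 KO in MV4-11, to -0.12 between the EV controls and to 0.18 for the difference, and gave 10 higher and 15 lower calls in MV4-11 against 13 and 7, 30 and 23 in Molm-14 against 18 and 27, and 31 and 13 for the difference against 16 and 28.

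Same-numbered EV and MPC1 KO libraries deviated together with r between -0.13 and 0.12, and 1 of 6 pairs exceeded 0.1. Pairs of unlike number had r between -0.14 and 0.20. With 3 libraries per group, these values cannot tell whether same-numbered libraries were handled together. With the replicate block in the permutations, whose smallest p is 0.03125, the ratio differences of 0.35, 2.19, 1.44 and -1.15 had adjusted p = 0.0781, and the added ones of 0.47 and 2.42 adjusted p = 0.0729, in the exact permutation test. The block changed no count of members.

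Without the added count, the difference between the lines in hsa-miR-181b-5p to hsa-miR-181a-5p was -1.08 (adjusted p = 0.0875, exact permutation test). The change of the hsa-miR-181b-2-3p to hsa-miR-181b-3p ratio with MPC1 KO was 0.38 to 0.57 with each library left out. Signs turned only for values past no threshold in either fit. For MPC1 KO in MV4-11 these were hsa-miR-181a-3p (-0.047 with upper-quartile factors, -0.021 to 0.13 with a library left out), hsa-miR-181b-5p (0.014 with DESeq2, 0.0097 with RLE factors, 0.081 with total counts, 0.0096 with no filter, 0.0075 with the mean of at least 100 counts, 0.027 with limma-voom, -0.25 to 0.34), hsa-miR-181c-5p (-0.097 with upper-quartile factors, -0.063 with limma-voom, -0.015 with edgeR on each line, -0.43 to 0.26) and hsa-miR-181b-3p (0.011 with total counts, -0.21 to 0.067). In Molm-14 it was hsa-miR-181b-5p (0.013 with upper-quartile factors, -0.24 to 0.19). For the difference they were, with upper-quartile factors, hsa-miR-181a-3p (0.039), hsa-miR-181b-5p (0.14, with -0.38 to 0.21) and hsa-miR-181b-3p (0.12, with -0.17 to 0.12), and hsa-miR-181b-2-3p (-0.027 with total counts, -0.030 with limma-voom, -0.20 to 0.29). Between the EV controls they were hsa-miR-181d-5p (-0.091 with upper-quartile factors, -0.0093 with the mean of at least 100 counts, -0.054 to 0.25) and hsa-miR-181c-5p (-0.91 to 0.11). Of the ratios, the miR-181a 3p arms to hsa-miR-181a-5p changed with MPC1 KO by 0.12 without the added count and by -0.39 to 0.19 with a library left out. The corresponding ranges were -0.18 to 0.026 for the c and d to the a and b guide arms, -0.37 to 0.037 for hsa-miR-181b-5p to hsa-miR-181a-5p and -0.23 to 0.21 for the miR-181b 3p arms to hsa-miR-181b-5p. Between the lines they were -0.44 to 0.030 for hsa-miR-181d-5p to hsa-miR-181c-5p and -0.062 to 0.38 for the miR-181b 3p arms to hsa-miR-181b-5p. The cause of these changes was not tested. Values of hsa-miR-181a-5p and hsa-miR-181c-5p rest on few counts, 0 to 8 and 2 to 19 per library.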

Other observations

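Other miRNAs whose mature sequence lies at 2 or more hairpins had low counts in these libraries beside hsa-miR-181a-5p, and they were named after their values were seen. hsa-miR-16-5p averaged 22.0 CPM over the 12 libraries, hsa-miR-26a-5p 3.48 CPM, hsa-miR-24-3p 2.47 CPM and hsa-miR-29b-3p 0.195 CPM. hsa-miR-92a-3p and hsa-miR-128-3p, also at 2 hairpins, averaged 4592 and 2626 CPM. Of the 38 such miRNAs, 71.1% averaged under 10 CPM, against 72.8% of the 1030 at 1 hairpin. How their reads were counted was not tested.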
